A study of Mus musculus with 4 samples.

Results

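The nuclear genes of oxidative phosphorylation were followed in mouse neural precursors in which Geminin had been depleted. They were chosen by gene symbol alone: symbols starting with Ndufa, Ndufb, Ndufc, Ndufs, Ndufv, Uqcr, Cox4, Cox5, Cox6, Cox7, Cox8 or Atp5, and the genes Sdha, Sdhb, Sdhc, Sdhd and Cyc1, with the Ndufaf assembly factors left out. This gave 87 of the 21690 features in each deposited table, 38 for complex I, 4 for complex II, 9 for complex III, 19 for complex IV and 17 for complex V. The symbols bring in a few genes that are not subunits of the complex they are counted in. Cox4nb is a neighbour of Cox4i1 and encodes a component of the endoplasmic reticulum membrane complex, Atp5sl encodes a complex I assembly factor, and the Ndufa4 protein, first assigned to complex I, is known as a complex IV component.

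The cells were derived from the A2lox mouse embryonic stem cell line and carried a Geminin knockdown that doxycycline switches on. All were monolayer cultures kept in serum-free N2B27, a medium for neural differentiation, and were harvested on day 5. Knockdown cultures received 500 ng doxycycline (no volume is given) from day 3, and the control cultures of the same cells received none. There were 3 knockdown libraries, from separate experiments, and 1 control library, and the question was which transcripts differ when Geminin is reduced. No doxycycline-treated culture without the knockdown was used here, so doxycycline and Geminin loss cannot be told apart, and the control has no replicate, so the spread between control cultures is unknown. The labels speak of clonal derivatives of A2lox without the number of clones used, and the stem cells had been kept on mouse embryonic fibroblast feeders before differentiation.

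Oxidative phosphorylation is carried out in the inner mitochondrial membrane. Complex I takes electrons from NADH and complex II takes them from succinate, both pass them through ubiquinone to complex III, and cytochrome c carries them on to complex IV, which reduces oxygen. Complexes I, III and IV pump protons, and complex V, the ATP synthase, uses the proton gradient to make ATP. Stem cells rely strongly on glycolysis, and neural differentiation is known for a greater use of mitochondrial respiration. Most subunits are encoded in the nucleus, and a small set encoded by mitochondrial DNA was outside the gene rule.

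Levels are given as FPKM, fragments divided by exon length and by the size of the library, which allows genes of different length to be compared. Each deposited table sets 1 knockdown library against the control, and the 3 tables share that control, so their results are not independent of each other. Libraries 1, 2 and 3 had 1.00, 1.15 and 0.971 times the depth of the control, and absolute depth is unknown. Values of the knockdown libraries are given in the order 1, 2 and 3 throughout. Gmnn, which encodes Geminin, stood at 27.0, 65.9 and 27.9 FPKM in the knockdown libraries and at 113 in the control, so every knockdown library was below the control and library 2 was the least depleted. Neural progenitor markers were present throughout, and none of the 10 markers met the rule stated for the series. Their list summed to 103%, 124% and 108% of the control, and 5 of the 10 were above it in all 3 knockdown libraries. Sox1 was the only 1 below it in all 3, at 63.8, 42.5 and 48.8 FPKM against 64.0. Summed over each list, neuronal markers (8 of 10 measured) reached 107%, 390% and 196% of the control, pluripotency markers (10 measured) 136%, 595% and 973%, and fibroblast markers (10 measured) 104%, 144% and 206%. Of the glial markers Mbp was listed at 0 in all 4 libraries. In bulk RNA, fewer cells of a type and less RNA per cell cannot be told apart.

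Oxidative phosphorylation genes were among the most abundant transcripts of these cells. In the control 47 of the 87 stood above 100 FPKM, 32 lay from 10 to 100 and 8 were under 10. The median gene of the group was at percentile 93.3 of all features tested by control FPKM, and 54 of the 87 fell in the top 10%. Atp5b, the catalytic beta subunit of the ATP synthase, was highest at 663 FPKM in the control, followed by Cox4i1 at 464, Atp5g3 at 427, Atp5g2 at 391 and Atp5a1 at 389. At the other end, the tissue-specific isoforms Cox6a2 and Cox8c were listed at 0 in all 4 libraries.

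**Figure D1:**
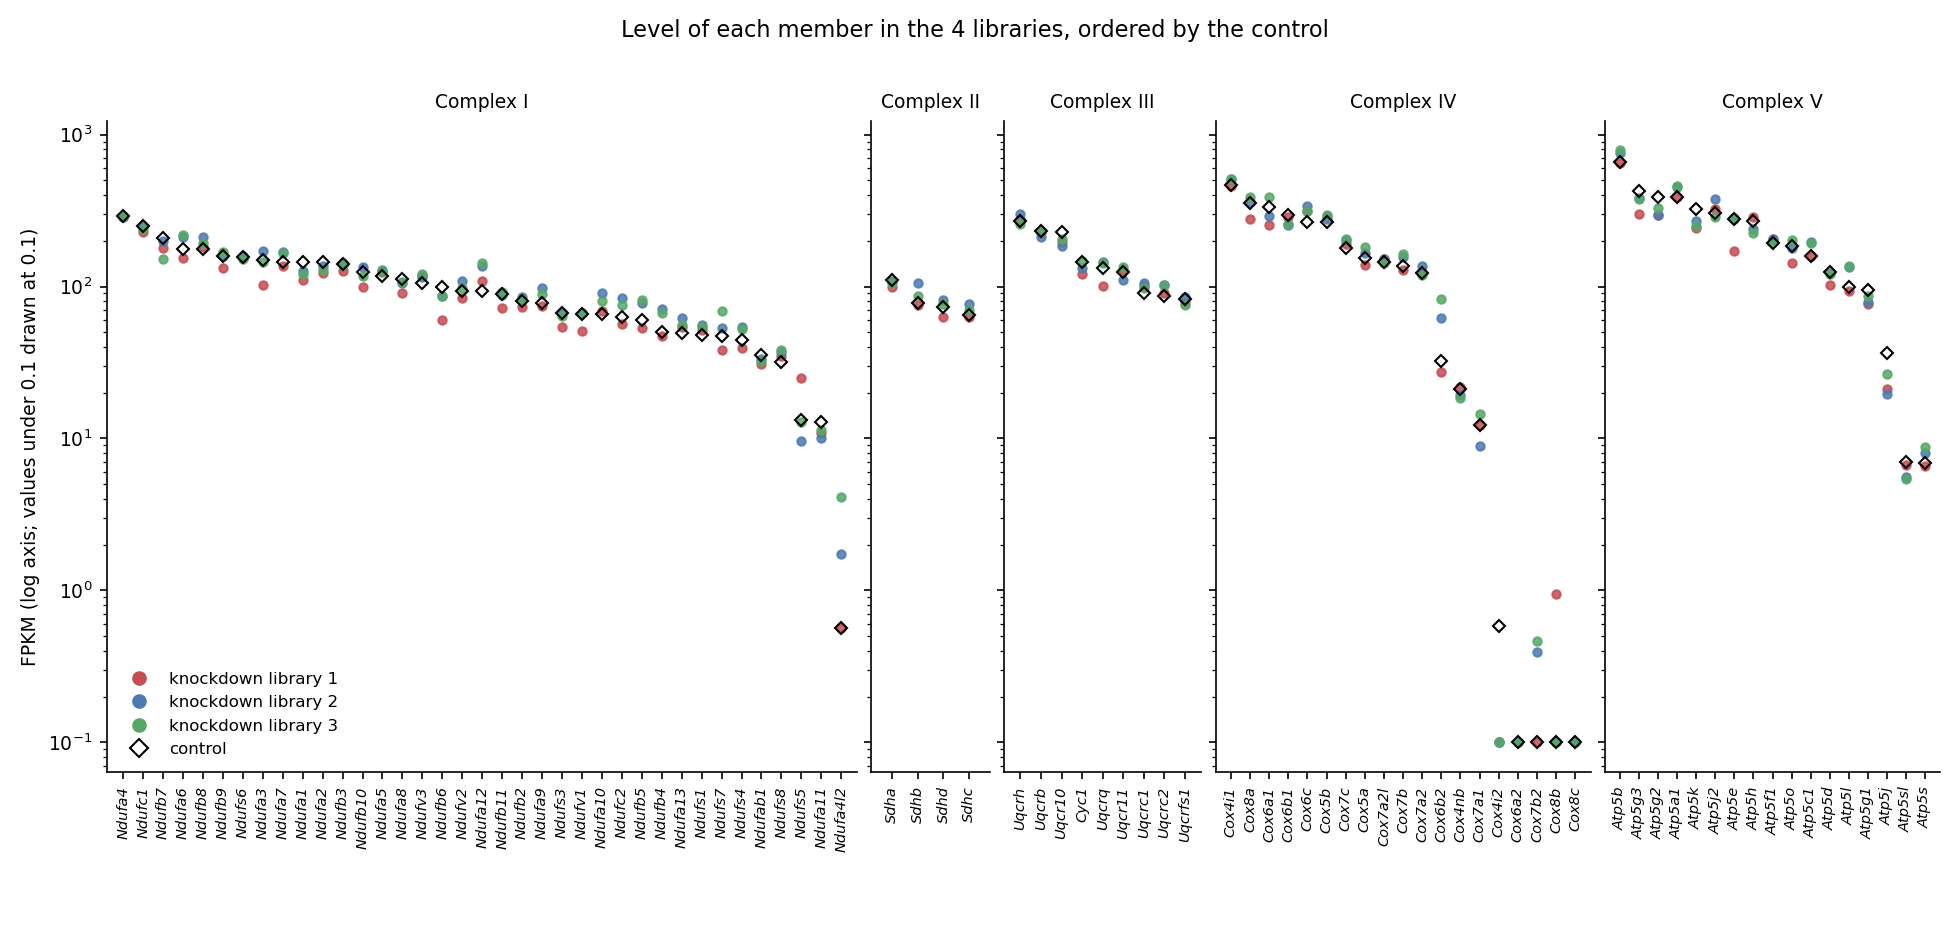
FPKM (log axis, values under 0.1 drawn at 0.1) of the genes of the group reported here in knockdown libraries 1, 2 and 3 (filled circles) and the control (open diamonds), by complex and ordered by the control. Most genes sit near or above 100 FPKM with the 4 libraries close together, while Ndufa4l2, Cox6b2, Atp5j and Ndufs5 are spread wider and several isoform genes lie at 0.

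No gene of the group met the rule stated for the series, a deposited Cuffdiff mark of significance, all in 1 direction, from no fewer than 2 of the 3 tables. Of 83 genes that could be called, 0 were higher and 0 lower, where 2.88% of the 14477 callable features were called, 1.98% higher and 0.905% lower. With background shares of this size, the count of 0 sets these genes apart from other features in no measurable way. Limma, fitted to log2(FPKM + 1) over 11968 features, tested 82 of the genes and also called 0 higher (background 0.0251%) and 0 lower (background 0.1%), with a smallest adjusted p of 0.999. The depleted gene Gmnn was not called by limma either, with a log2 change of -1.59 and a limma adjusted p of 0.999. The lack of a limma call therefore does not show that a gene was unchanged. By the rule stated for the series Gmnn was called lower, with marks in libraries 1 and 3 but not in library 2. At an unadjusted limma p under 0.05, Atp5j was the only gene of the 82, and it was lower (background 0.685% lower and 0.585% higher). The 5 genes not tested were Cox4i2, Cox6a2, Cox7b2, Cox8b and Cox8c, all at under 1 FPKM on average.

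The size of the differences was as follows. Of the 82 tested genes, 75 (91.5%) were within 1.5-fold of the control in every knockdown library, against 80.0% of all features tested. Limma's 95% interval for the change had a median half-width of 0.44 on the log2 scale, which is 1.36-fold. It held 0 for 81 genes, it lay inside a 1.5-fold change in either direction for 43, and inside a 2-fold change for 75. These intervals are not adjusted for the number of genes.

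As a whole, the group differed little from the control and differently in library 1 than in libraries 2 and 3. Summed FPKM of the 87 genes came to 11307, 12897 and 12835 in the knockdown libraries, in the order 1 to 3, and to 12372 in the control, or 91.4%, 104% and 104% of it, which averages 99.8% ± 7.27 (SD, n = 3). Library 1 was therefore below the control and libraries 2 and 3 were just above it. Over all features, summed FPKM was 106%, 93.2% and 94.6% of the control, in the opposite order. Over the tested genes the log2 ratios had medians of -0.10, 0.08 and 0.07, beside -0.02, 0.03 and 0.01 for all features tested.

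Counted gene by gene, 59 of 82 (72.0%) were below the control in library 1, 31 (37.8%) in library 2 and 32 (39.0%) in library 3. These shares over all features tested were 53.8%, 45.9% and 48.3%. Lower in all 3 knockdown libraries, so that the groups did not overlap, were 20 genes, or 24.4% against a background of 22.9%. Higher in all 3 were 15 genes, or 18.3% against 22.7%. Lower in library 1 and higher in both others were 27 genes, or 32.9% against 17.1% of all features. No test was made of these shares, and all 3 ratios of a gene share its control value.

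**Figure D2:**
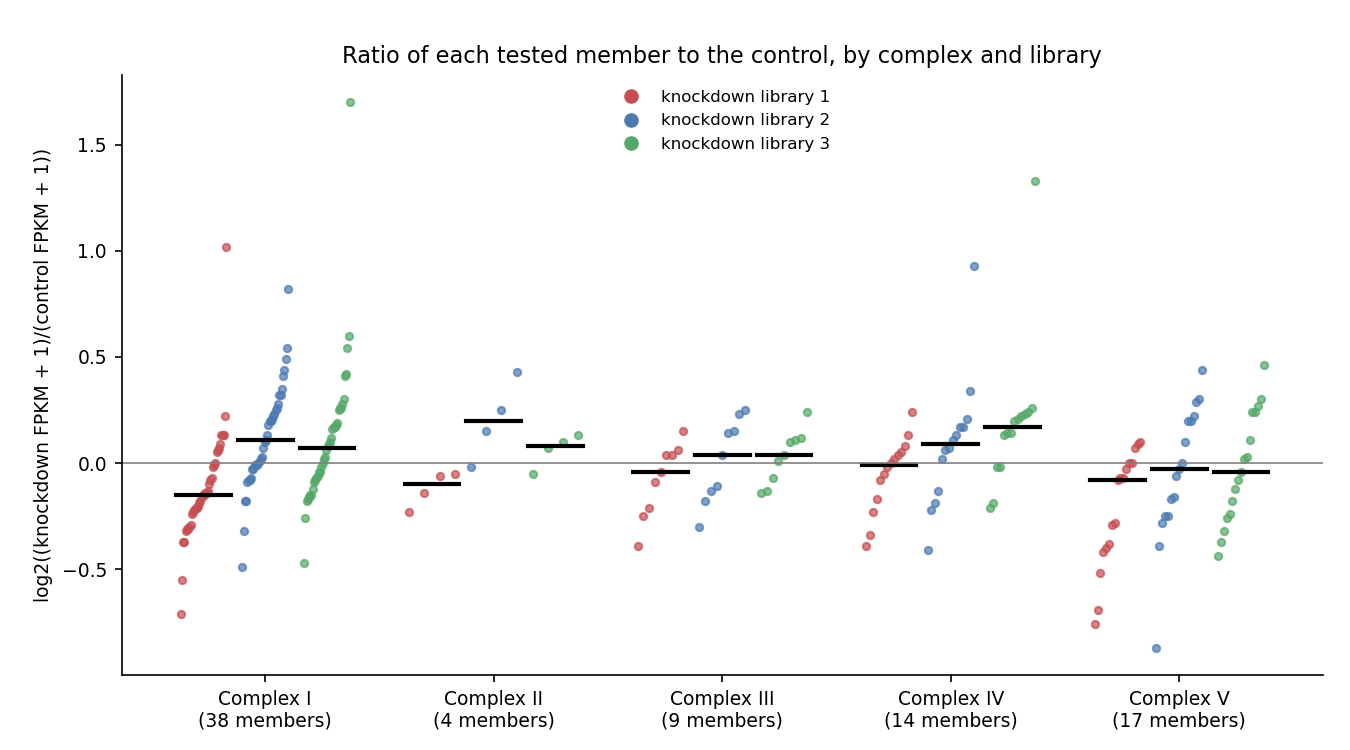
Log2 ratio of knockdown to control, with 1 added to each FPKM, for the 82 tested genes by complex, with a point per gene in each knockdown library and a black bar at the median. Library 1 medians run from -0.15 to -0.01 in the 5 complexes, library 2 and 3 medians are above 0 in complexes I to IV, and all 3 are slightly below 0 in complex V.

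The deposited marks of single tables show the same split between libraries. In library 1 the authors' deposited table marked 9 of the 87 genes, all lower, where 1.52% of 14301 features were marked lower and 0.909% higher. The 9 were the complex V genes Atp5e, Atp5g2, Atp5g3, Atp5j and Atp5o, the complex IV genes Cox6a1 and Cox8a, and the complex I genes Ndufb6 and Ndufv1. In library 2 none was marked (background 3.23% higher, 2.02% lower), and in library 3 only Cox6b2 was marked, higher (background 3.33% higher, 1.28% lower). Over all features, 5.07% were marked higher and 3.41% lower in at least 1 table with no mark in the other direction, against which the 87 genes had 1 marked higher and 9 marked lower. A mark in a single table sets 1 library against 1 other and has no replicate behind it. The Cuffdiff error implied by the deposited test statistic, on the natural log scale, also differed between tables, with a median over these genes of 0.0828 for library 1, 0.188 for library 2 and 0.178 for library 3, so a smaller ratio was marked for library 1. All features showed the same order, with medians of 0.102, 0.223 and 0.211. Among features with 50 to 500 FPKM in the control, 8 of 66 genes of the group (12.1%) and 3.59% of 1952 features were marked lower in library 1, at implied errors of 0.0797 and 0.0653. What sets library 1 apart was not tested.

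Complex I, the NADH dehydrogenase, had 38 genes, and none was called. Median log2 ratios over its genes were -0.15, 0.11 and 0.07, and summed FPKM reached 90.6%, 107% and 103% of the control. Genes below the control numbered 29 of 38 in library 1, 13 in library 2 and 15 in library 3. The 7 core subunits, which hold the flavin and the iron-sulfur clusters of the electron path, had a summed FPKM of 88.2%, 107% and 105% of the control, and the 31 accessory genes 90.9%, 107% and 103%. Both classes were thus below the control in library 1 and above it in libraries 2 and 3.

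Among core subunits, Ndufv1, which binds NADH and the flavin, stood at 51.0, 66.6 and 67.4 FPKM in the knockdown libraries and at 66.4 in the control. Only library 1 was low, the other two sat at the control level, and the limma change was -0.12 ± 0.20 (SE) on the log2 scale. Ndufs1, the large iron-sulfur subunit, had 51.4, 55.6 and 53.8 FPKM against 48.1. All 3 were above the control, with a limma log2 change of 0.15 and a 95% interval from -0.17 to 0.47.

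Among the accessory genes, Ndufa4 and Ndufc1 were the most abundant. Ndufa4 had 289, 287 and 293 FPKM against 292 in the control, a log2 change of -0.01 with an interval from -0.33 to 0.30. Ndufc1 had 230, 251 and 239 against 252, with all 3 libraries slightly below the control and an interval from -0.40 to 0.26. Both intervals are narrower than the group's median.

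Ndufa12, an accessory subunit of the matrix arm, was the complex I gene with the highest mean ratio among those above the control in every library. It stood at 108, 136 and 142 FPKM in the knockdown libraries and at 92.9 in the control. The groups did not overlap, and library 1 was closest to the control. The limma log2 change was 0.45 ± 0.19 (SE), the interval ran from -0.05 to 0.96, and the adjusted p was 0.999. Ndufb6, an accessory subunit of the membrane arm, was the counterpart on the low side, at 60.0, 87.2 and 86.8 FPKM against 98.7. All 3 were below the control and library 1 lowest, at 60.8% of it, with a log2 change of -0.36 ± 0.26 (SE), and of -0.18 without library 1. The authors' deposited table gave Ndufb6 a q, the adjusted p-value of Cuffdiff, which exceeds 1 in places, of 0.0026 in library 1 and 0.983 in library 3.

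Ndufa4l2, a paralogue of Ndufa4 known as a gene induced by low oxygen, was the least abundant complex I gene. It stood at 0.566, 1.74 and 4.13 FPKM in the knockdown libraries and at 0.567 in the control. Library 1 was at the control level, and libraries 2 and 3 were higher. The log2 change was 0.84 with an interval from -1.03 to 2.71. It was 1.38 with a pseudocount of 0.1 in place of 1 and 0.41 without library 3. Its locus in the tables is shared with Shmt2, an enzyme of serine metabolism, at 36.0, 51.1 and 50.4 FPKM against 34.5, and reads of overlapping genes cannot be told apart without strand, which is not given in the sources used here. Ndufs5, singled out after its values were seen, had 24.9, 9.55 and 12.9 FPKM. Its control was estimated at 11.7, 13.8 and 14.4 FPKM in the 3 tables, it overlaps the feature BC002163, and its interval was the widest after those of Ndufa4l2 and Cox6b2, from -1.53 to 1.79.

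Complex II, succinate dehydrogenase, links the tricarboxylic acid cycle to the respiratory chain and is wholly encoded in the nucleus. Its 4 genes had median log2 ratios of -0.10, 0.20 and 0.08, and summed FPKM of 92.0%, 114% and 104% of the control. All 4 were below the control in library 1, and 1 of 4 was below it in each of the others. Sdha, the flavoprotein that oxidizes succinate, had 100, 108 and 106 FPKM against 110 in the control. Every library was below the control by a small amount, with a limma log2 change of -0.07 (interval -0.38 to 0.24). Sdhb, the iron-sulfur subunit, had 75.3, 106 and 86.1 against 78.4. Library 1 was just below and libraries 2 and 3 above the control, so the groups overlapped, and the interval ran from -0.41 to 0.75.

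Complex III, the cytochrome bc1 complex, was the steadiest of the 5 by the spread of summed FPKM, which was 94.8%, 99.2% and 101% of the control (98.2% ± 3.05, SD, n = 3). All 9 genes were within 1.5-fold of the control in every library. Cyc1, the cytochrome c1 subunit that hands electrons to cytochrome c, had 121, 133 and 148 FPKM against 144, so the groups overlapped. Uqcrfs1, the Rieske iron-sulfur protein, had 77.9, 85.4 and 75.2 against 82.8, with library 2 alone above the control. Their intervals ran from -0.52 to 0.31 and from -0.41 to 0.29.

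Uqcrh and Uqcrb, small subunits of complex III, were its most abundant transcripts. Uqcrh had 278, 300 and 258 FPKM against 271, and Uqcrb 225, 211 and 232 against 231, each with libraries on both sides of the control. Uqcrc2, a core protein of the matrix side, had 90.2, 103 and 103 FPKM against 86.6. All 3 were above the control, with a log2 change of 0.18 (interval -0.18 to 0.55), and the Uqcrc2 locus overlaps Pdzd9. Uqcr10, a small membrane subunit, had 196, 184 and 207 against 227. Here all 3 were below the control, with a log2 change of -0.21 (interval -0.56 to 0.13).

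Complex IV, cytochrome c oxidase, had the highest library 3 values of the 5 complexes. Its 19 genes summed to 96.1%, 105% and 110% of the control, and the 14 tested genes had median log2 ratios of -0.01, 0.09 and 0.17. Many of its subunits come in isoform pairs, 1 used widely and the other in muscle, lung or testis, so the isoforms were set side by side. FPKM is per length, and an isoform's share is its percent of the FPKM of its family.

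The widely used isoforms made up nearly all of most families. Cox4i1, the major regulatory subunit, had 457, 507 and 509 FPKM against 464, with library 1 below and the other two above the control (limma log2 change 0.08, interval -0.30 to 0.46). Cox4i2, its isoform of lung and low oxygen, was listed at 0 in the knockdown libraries and at 0.585 in the control. The muscle isoform Cox6a2 and the testis isoform Cox8c were listed at 0 in all 4 libraries. The muscle isoform Cox8b was listed at 0.953 in library 1 and at 0 elsewhere. Cox7b2, a testis isoform, was at 0.391 and 0.464 in libraries 2 and 3 and at 0 in library 1 and the control. The 10 muscle markers summed to 105%, 39.6% and 110% of the control, most of it from Acta1 at 44.5 FPKM in the control. Myod1 was near 0 throughout, at 0 in all knockdown libraries and 0.0928 FPKM in the control. Myog was near 0 as well, at 0.12, 0 and 0.124 FPKM against 0.

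Cox6a1, the counterpart of Cox6a2, had 254, 293 and 386 FPKM against 334 in the control. Libraries 1 and 2 were below and library 3 above it, so the groups overlapped. Cox8a had 280, 359 and 391 FPKM against 355, with library 1 low and library 3 highest. Cox7b had 129, 157 and 163 against 136, in the same order. Their intervals were -0.82 to 0.57, -0.66 to 0.54 and -0.34 to 0.60.

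The Cox7a family had a similar makeup in the 4 libraries. Cox7a2, the isoform of most tissues, had 123, 137 and 119 FPKM against 122, and Cox7a2l, which takes part in respiratory supercomplex assembly, had 151, 152 and 143 against 145. Cox7a1, the isoform of heart and muscle, had 12.2, 8.96 and 14.5 against 12.2. Library 2 was the lowest for Cox7a1 and the highest for Cox7a2. The share of Cox7a1 was 4.25%, 3.00% and 5.23% in the knockdown libraries and 4.37% in the control, and that of Cox7a2l was 52.8%, 51.0% and 51.7% against 52.1%. For each of these shares the knockdown libraries lay on both sides of the control.

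Cox6b was the family in which the makeup differed most. The Cox6b subunit lies on the outer side of the membrane near the cytochrome c site, and Cox6b2, at chr7:4703395-4704696 (mm9), is the isoform known from testis. Cox6b2 stood at 27.4, 62.2 and 82.2 FPKM in the knockdown libraries and at 32.3 in the control. Library 1 was slightly below the control, and libraries 2 and 3 were at 193% and 256% of it. Cox6b1, the widely used isoform, had 287, 254 and 257 FPKM against 296, so all 3 were below the control, libraries 2 and 3 the most. Cox6b2 thus made up 8.73%, 19.7% and 24.3% of Cox6b in the knockdown libraries (17.6% ± 7.98, SD, n = 3) and 9.83% in the control. The family total was 314, 316 and 339 FPKM against 328.

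Neither Cox6b gene was called. The limma log2 change of Cox6b2 was 0.67 ± 0.63 (SE) with an interval from -1.0 to 2.35, and that of Cox6b1 was -0.16 (interval -0.52 to 0.21). Without library 1 the change of Cox6b2 was 1.13 ± 0.22 (SE), and without library 3 it was 0.35 ± 0.55 (SE). The authors' deposited table gave Cox6b2 a q of 0.0246 in library 3 and 0.938 in library 1. Pluripotency markers moved in the same order of libraries, with summed levels of 136%, 595% and 973% of the control, and 7 of the 10 met the rule stated for the series as higher (background 1.98%). Their part in the Cox6b2 level was not tested. Cox6c, another nuclear subunit, had the highest mean ratio among complex IV genes above the control in every library, at 315, 337 and 312 FPKM against 267. The groups did not overlap, and the log2 change was 0.27 with an interval from -0.07 to 0.60.

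**Figure D3:**
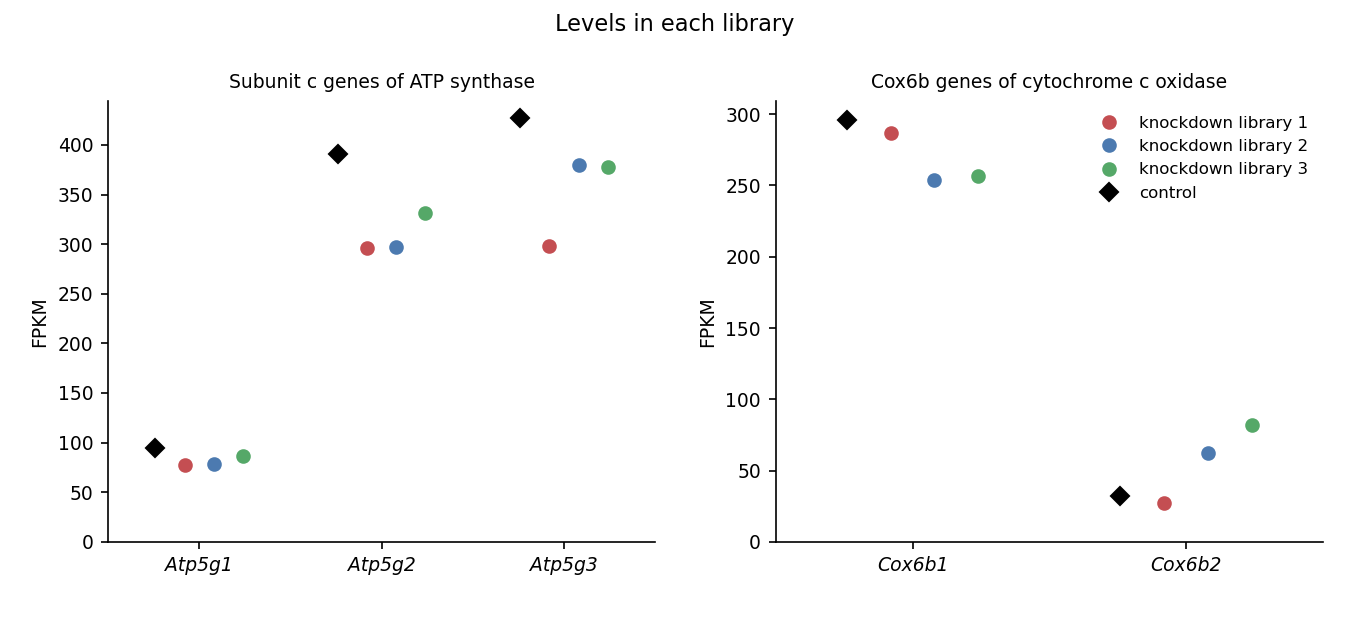
FPKM of the 3 subunit c genes (left) and of the Cox6b pair (right) in knockdown libraries 1, 2 and 3 (circles) and the control (black diamonds), 1 point per library. The control is above all 3 knockdown libraries for each subunit c gene and for Cox6b1, while Cox6b2 reads 32.3 in the control and 62.2 and 82.2 in libraries 2 and 3.

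Complex V, the ATP synthase, is a rotary machine, and its parts stood at different levels relative to the control. Its 17 genes summed to 87.7%, 101% and 101% of the control, with median log2 ratios of -0.08, -0.03 and -0.04. The median over genes of the mean ratio was -0.11, beside 0.00 for all features, and it was 0.01 without library 1. Lower than the control in every knockdown library were 7 of 17 genes, or 41.2% against a background of 22.9%, and 2 were higher in every library (11.8% against 22.7%). The 7 include Atp5sl, which is counted here by its symbol and encodes a complex I assembly factor.

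The catalytic F1 head is built from Atp5a1 and Atp5b. Atp5b had 647, 762 and 786 FPKM in the knockdown libraries and 663 in the control, and Atp5a1 had 388, 455 and 460 against 389. Library 1 matched the control within a few percent, at 97.6% and 99.9%, and libraries 2 and 3 were at 115% to 119% of it. The limma log2 changes were 0.14 ± 0.18 (SE) and 0.15 ± 0.16 (SE). In the central stalk, Atp5c1, the rotating gamma subunit, had 160, 197 and 193 FPKM against 160. It was at the control level in library 1 and above it in the others, with a log2 change of 0.19 (interval -0.25 to 0.64). Atp5e, the small epsilon subunit, had 172, 280 and 283 against 279, so that library 1 alone was low, at 61.8% of the control. The authors' deposited table gave Atp5e a q of 2.7e-05 in library 1 and 1.04 in library 3, and the limma log2 change was -0.22 (interval -1.10 to 0.66).

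The c ring, which turns as protons pass through the membrane, was below the control in every knockdown library. Subunit c is encoded by Atp5g1, Atp5g2 and Atp5g3, whose mature proteins are the same and whose mitochondrial targeting sequences differ. Atp5g2 stood at 296, 297 and 331 FPKM in the knockdown libraries and at 391 in the control. Atp5g3 stood at 298, 380 and 378 against 427, and Atp5g1 at 77.0, 78.9 and 86.7 against 94.3. For each gene the control was above all 3 knockdown libraries, with library 1 the lowest. This was not particular to the c ring. Among the 3 membrane accessory genes of complex V, Atp5k was at 74.6%, 84.3% and 77.3% of the control. The others, Atp5j2 and Atp5l, were not below it in every library. Of all features tested, 22.9% were below the control in all 3 knockdown libraries, and the 3 ratios of a gene share its control value.

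Together the 3 genes summed to 670, 756 and 796 FPKM against 912, which is 73.5%, 82.9% and 87.2% of the control (81.2% ± 7.02, SD, n = 3). The shares of the 3 genes in this sum were similar in the 4 libraries, with Atp5g3 at 44.4%, 50.3% and 47.5% of the sum against 46.8%, and Atp5g1 at 11.5%, 10.4% and 10.9% against 10.3%. None was called by limma: the log2 changes were -0.34 for Atp5g2 (interval -0.71 to 0.02), -0.29 for Atp5g3 (interval -0.81 to 0.23, and -0.17 without library 1) and -0.22 for Atp5g1 (interval -0.56 to 0.12), each with an adjusted p of 0.999. In library 1 the authors' deposited table gave a q of 0.00265 for Atp5g2, 5e-06 for Atp5g3 and 0.207 for Atp5g1, and in library 3 none had a q under 0.763. Subunit c genes have near-identical copies in the genome, and fragments that fit more than one copy leave the level of each gene uncertain.

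The promoters of the subunit c genes and of the Cox6b pair are shown because the first are a family whose members were all below the control and the second a pair whose members were on opposite sides of it in libraries 2 and 3. They are the RefSeq sequences of build GRCm38.p6, a later build than the mm9 of the tables, all on the minus strand, from 250 bases before to 25 bases after the annotated start. Capitals mark a match to GCGCA followed by any base and GCGC, the core motif of the respiratory gene factor NRF1, or to GGAAGTG, the core motif of ETS factors such as GABP, on either strand. The windows lie at chr11:96075607-96075881 for Atp5g1, chr15:102671023-102671297 for Atp5g2, chr2:73911302-73911576 for Atp5g3, chr7:30626090-30626364 for Cox6b1 and chr7:4753070-4753344 for Cox6b2.
Atp5g1: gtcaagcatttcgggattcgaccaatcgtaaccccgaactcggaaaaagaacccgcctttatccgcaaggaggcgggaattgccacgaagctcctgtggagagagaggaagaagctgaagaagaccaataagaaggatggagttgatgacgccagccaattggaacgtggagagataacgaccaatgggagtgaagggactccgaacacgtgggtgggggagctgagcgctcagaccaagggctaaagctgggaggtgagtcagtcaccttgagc
Atp5g2: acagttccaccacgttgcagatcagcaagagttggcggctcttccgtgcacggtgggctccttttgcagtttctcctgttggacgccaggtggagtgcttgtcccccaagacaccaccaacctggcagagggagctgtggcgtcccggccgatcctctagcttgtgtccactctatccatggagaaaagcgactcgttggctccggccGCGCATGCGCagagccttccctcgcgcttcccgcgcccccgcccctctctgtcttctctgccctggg
Atp5g3: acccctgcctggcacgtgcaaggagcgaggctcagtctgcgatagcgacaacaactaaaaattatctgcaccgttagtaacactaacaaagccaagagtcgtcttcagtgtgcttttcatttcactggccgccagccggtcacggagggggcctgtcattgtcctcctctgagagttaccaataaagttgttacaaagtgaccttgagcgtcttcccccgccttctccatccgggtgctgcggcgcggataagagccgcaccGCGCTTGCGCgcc
Cox6b1: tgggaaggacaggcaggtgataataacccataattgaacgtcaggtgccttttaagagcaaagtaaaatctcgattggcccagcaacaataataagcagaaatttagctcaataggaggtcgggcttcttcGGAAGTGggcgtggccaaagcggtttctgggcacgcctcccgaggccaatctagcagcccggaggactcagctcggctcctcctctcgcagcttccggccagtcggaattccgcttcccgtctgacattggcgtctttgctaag
Cox6b2: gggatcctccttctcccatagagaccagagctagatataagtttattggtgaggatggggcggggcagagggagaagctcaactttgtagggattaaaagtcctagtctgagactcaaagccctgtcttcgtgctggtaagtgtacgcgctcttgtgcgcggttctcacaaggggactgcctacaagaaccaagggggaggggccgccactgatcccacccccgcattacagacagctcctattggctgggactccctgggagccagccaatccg

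Atp5g2 holds the NRF1 core at position -42, counted from the start site, and Atp5g3 holds it at position 13, where it reads on the opposite strand. The Cox6b1 window has the ETS core at position -119. Neither motif is in these windows of Atp5g1 and Cox6b2. Over the full 300 bases that RefSeq promoters were read for, 17 of the 70 group genes with a promoter (24.3%) held the NRF1 core, against 7.17% of 17492 protein-coding genes. The ETS core was in 12 of 70 (17.1%), against 13.6%. By complex, the NRF1 core was in 7 of 33 genes of complex I, 2 of 3 of complex II, 1 of 5 of complex III, 1 of 13 of complex IV and 6 of 16 of complex V. These are matches of letters and not binding sites.

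Ratios were set beside the motifs as a description. The 17 tested genes with the NRF1 core had medians of -0.21, -0.06 and -0.04 on the log2 scale in libraries 1, 2 and 3, and the 51 without it -0.10, 0.10 and 0.06. For the ETS core the medians were -0.14, 0.15 and 0.03 in 11 genes with it and -0.13, 0.06 and 0.06 in 57 without it.

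The peripheral stalk holds the F1 head still against the turning ring. Its 4 genes summed to 96.1%, 94.1% and 94.9% of the control. Atp5j, which encodes its coupling factor F6 and lies in the locus chr16:84828115-84864023 (mm9), stood apart, at 21.1, 19.5 and 26.7 FPKM in the knockdown libraries and 36.5 in the control. All 3 were below the control without overlap, at 57.8%, 53.6% and 73.1% of it. The limma log2 change was -0.69 ± 0.21 (SE) with an interval from -1.25 to -0.12, an unadjusted p of 0.0266 and an adjusted p of 0.999. This was the only interval of the 82 that left out 0. With library 1 or library 2 left out, the change was -0.65 or -0.60 and its unadjusted p was above 0.05. The tables list this locus jointly with Gabpa, which encodes the DNA-binding subunit of GABP, and the locus also overlaps the feature LOC654426. Fragments may therefore be shared between these features. Gabpa had 30.8, 31.2 and 29.6 FPKM against 27.5, on the other side of the control from Atp5j.

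**Figure D4:**
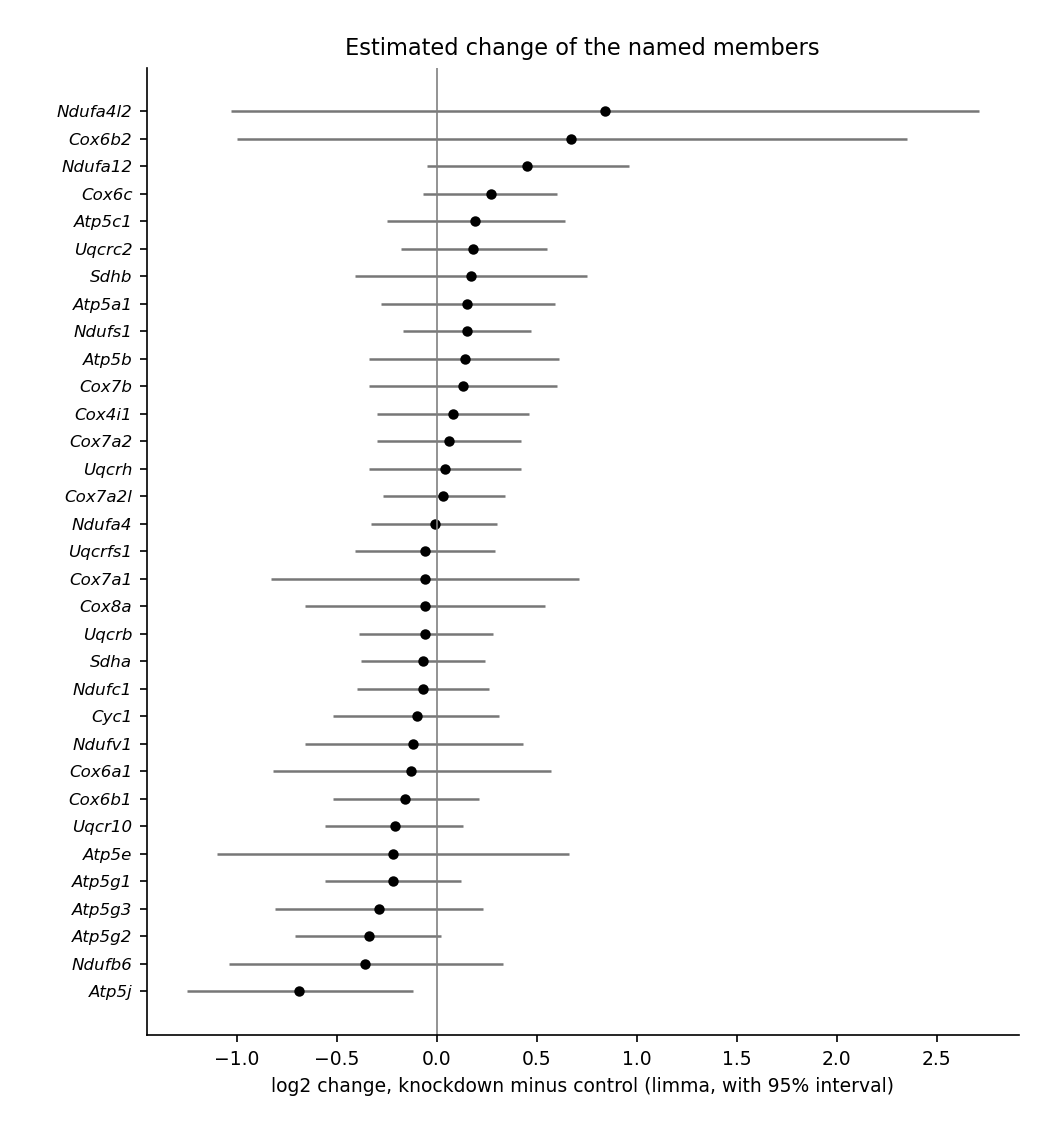
Limma log2 change of knockdown against control (points) with 95% intervals (bars) for the named genes tested and reported here, ordered by the change. The interval of Atp5j, from -1.25 to -0.12, is the only one shown that leaves out 0, and those of Ndufa4l2 and Cox6b2 are the widest.

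Neighbouring pathways were compared with the same measures to show where the group stands. Of 29 measured assembly factors for the complexes 0 were called in either direction (background 2.88%, under which few of so short a list would be called), and their log2 ratios had medians of -0.07, 0.10 and 0.08 in libraries 1, 2 and 3. Cox17, a copper chaperone for complex IV, had 84.0, 111 and 137 FPKM against 101, and Ndufaf2, a complex I assembly factor, 41.3, 46.3 and 47.3 against 43.7. For 18 genes of the tricarboxylic acid cycle, also with 0 called against 2.88% of all features, the medians were -0.06, 0.05 and 0.06. Mdh2, malate dehydrogenase of the mitochondrion, had 172, 185 and 177 FPKM against 178. These lists were low in library 1 and higher in libraries 2 and 3, as were complexes I to IV.

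Regulators and carriers were likewise not called, against the same background. Among 22 regulators of mitochondrial transcription and biogenesis the medians were -0.02, 0.06 and 0.02, with Ssbp1, the single-stranded DNA binding protein of mitochondria, at 64.5, 60.2 and 53.8 FPKM against 50.7. Among 17 electron carriers, inhibitors and membrane carriers they were -0.01, 0.01 and -0.02. Atpif1, the inhibitor of the ATP synthase, had 488, 418 and 408 FPKM against 356, above the control in every library and marked higher in library 1 alone. Slc25a4, the ADP/ATP carrier, had 265, 321 and 309 against 332, below the control in every library and marked lower in library 1 alone.

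Genes of glycolysis met the rule stated for the series. Of 20 measured genes 1 rose and 4 fell (background 1.98% higher, 0.905% lower), and limma called 0 in either direction and 0 at an unadjusted p under 0.05. Ldha, which turns pyruvate into lactate, had 465, 224 and 326 FPKM against 601 in the control. The glucose transporter Slc2a3 had 458, 218 and 365 against 498, and the phosphofructokinase Pfkl had 79.2, 55.5 and 78.6 against 105. For all 3 the control was the highest and library 2 the lowest. In library 1 the authors' deposited table gave Slc2a3 a q of 2.8e-08 at 91.9% of the control, and Ldha 0.0212 at 77.2%. In library 3 Slc2a3 was marked at 73.3% of the control, while Ldha at 54.2% was not marked, with a Cuffdiff q of 0.0587. The marks of Slc2a3 in libraries 1 and 3 are thus out of proportion to its ratios, and the reason was not tested. Ldhb, the other lactate dehydrogenase subunit, rose, at 55.2, 126 and 126 FPKM against 52.9. The pathway's median log2 ratios were -0.15, -0.43 and -0.23, and its summed FPKM was 87.8%, 63.1% and 78.7% of the control, where the oxidative phosphorylation genes summed to 91.4%, 104% and 104%. Library 2 was thus the lowest for glycolysis and not for oxidative phosphorylation. The calls rest on the number of tables that had to mark a gene: without library 1 or without library 2, 2 genes of glycolysis fell.

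Cytosolic ribosomal protein genes served as other abundant, short transcripts, with medians of 578 FPKM in the control and 704 bases. Mitochondrial ribosomal protein genes were lower and longer, with medians of 34.8 FPKM and 1038 bases. The oxidative phosphorylation genes had medians of 118 FPKM and 671 bases. The 83 cytosolic ones had median log2 ratios of -0.11, -0.04 and 0.05, and the 76 mitochondrial ones -0.07, 0.00 and -0.03. In library 1, 11 cytosolic genes were marked lower and 2 higher, and 1 mitochondrial gene was marked lower. Of all features, 1.52% were marked lower in library 1 and 0.909% higher. By the rule stated for the series 1 cytosolic gene, Rpl39l, rose (background 1.98%) and no mitochondrial one was called. Genes below the control in library 1 were thus 68.4% of the tested cytosolic and 59.2% of the mitochondrial ribosomal genes, beside 72.0% of the oxidative phosphorylation genes.

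**Figure D5:**
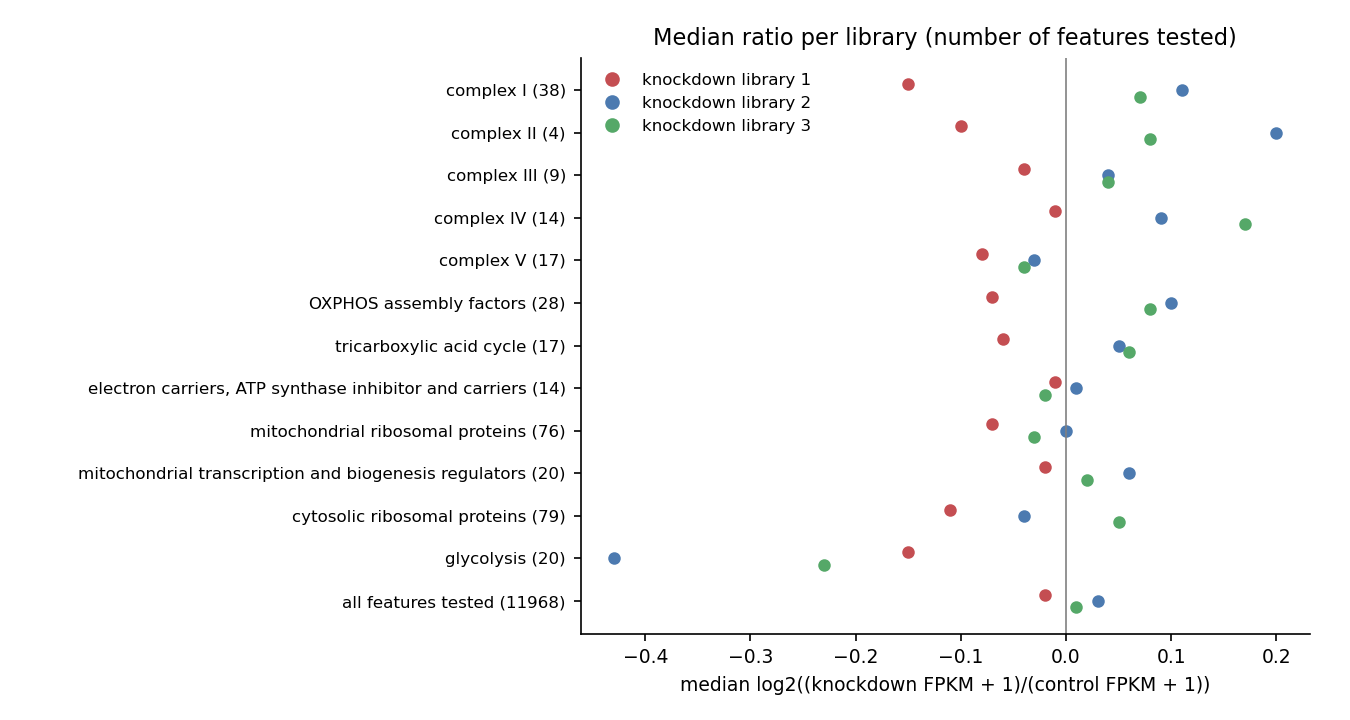
Median log2 ratio of knockdown to control, with 1 added to each FPKM, in knockdown libraries 1, 2 and 3 for the 5 complexes, the neighbouring pathways and all features, with the number of features tested in parentheses. Complexes I to IV lie below 0 in library 1 and above 0 in libraries 2 and 3, while glycolysis lies below 0 in every library, at -0.15, -0.43 and -0.23.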

How the data were processed

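RNA of 3 Geminin knockdown libraries and 1 control library had been sequenced, and per the submitters' processing notes TopHat, Cufflinks and Cuffdiff were used with build mm9. Their versions, the strand setting and the annotation were not given in the sources used here. Each of the 3 deposited tables sets 1 knockdown library against the control. The authors gave FPKM for both libraries, which are not counts, and per the file headers a q-value (above 1 in places), a test statistic and a natural log of control over knockdown, here treated as scores. Ratios were formed within a table, since control values were equal within 0.1% of those beside library 1 in only 90.7% of features beside library 2 and 91.1% beside library 3. Relative depth was read from features with few reads, where 85.0% to 87.9% of ratios matched, within 0.2%, a ratio between whole numbers of at most 12 reads. The deposited files that repeat marked features were not used.

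A feature was called by the rule stated for the series when its deposited mark (q under 0.05, usable test status) appeared in 2 or more of the 3 tables in 1 direction and in none in the other. The limma model (version 3.58.1, R 4.3.3) took log2(FPKM + 1) as its input and used a trend in the prior variance. It covered 11968 features, those with a usable status in every table whose FPKM averaged 1 or more, and each knockdown value was first rescaled by the control of its own table. Adjusted p-values are Benjamini-Hochberg values over these features. The fit has 2 residual degrees of freedom, which come from the knockdown libraries alone. Control cultures are taken to have the same spread as knockdown cultures, and a single control library cannot show whether they do. For low genes a fold change on this scale is too small. An exact permutation of 3 against 1 has 4 arrangements and cannot go below p = 0.25 one-sided, so none was run. Tables were handled in Python 3.11.15.

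Members and lists were chosen with earlier results of these data known. Named genes are the 6 with the largest ratio among those marked for 1 library, the 2 most abundant genes and the largest rise and fall of 1 sign in each complex, isoform families, core subunits and, from each pathway list, up to 4 called genes or else the 2 most abundant. A gene that this rule names is not reported here, and it stays in the counts and sums. Promoters of 70 of the 87 genes were matched by symbol or synonym. Alternatives changed the number of tables, the q threshold, the pseudocount, the filter, the scaling, the prior variance and the gene membership, and left out each library in turn. A version without the 10 genes whose locus overlaps another feature was chosen after seeing the data.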

Additional observations from a re-analysis of the deposited data

How the results depend on the processing

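No oxidative phosphorylation gene was called by limma under any alternative tried, and the smallest adjusted p was 0.126 with no filter on low values and 0.385 without library 1. The fit with no filter also took in Cox4i2, listed at 0 in the knockdown libraries and at 0.585 FPKM in the control. By the rule stated for the series, 1 gene was called higher and 9 lower when a mark in at least 1 table was enough (5.07% and 3.41% of all features), and 0 under all other settings. With that looser rule, to be read against the same shares, the counts were 1 higher for the regulators, 1 higher and 1 lower for the carriers, 2 higher and 7 lower for glycolysis, 4 higher and 11 lower for the cytosolic ribosomal genes and 1 lower for the mitochondrial ones. When all 3 tables had to mark a gene, glycolysis had 0 higher and 2 lower and the cytosolic ribosomal genes 0 higher, and with a q of at most 0.01 the cytosolic ribosomal genes again had 0 higher. Leaving out 1 library at a time gave 0 to 1 higher and 2 to 4 lower in glycolysis, and 0 to 1 higher among cytosolic ribosomal genes. The median log2 ratio of complex V was -0.11 and ran from -0.15 without library 3 to 0.01 without library 1, so its sign rests on library 1. The carriers' median ran from -0.07 to -0.01. Over all alternatives the median of complex III ran from -0.07 to -0.02 and that of complex IV from 0.04 to 0.09, while those of complexes I and II crossed 0.

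Of the named genes, 7 changed the sign of a small, uncalled limma log2 change with 1 library left out. Over these fits Atp5e ran from -0.34 to 0.01, Cox6a1 from -0.29 to 0.01, Cox8a from -0.16 to 0.08 and Ndufv1 from -0.18 to 0.01, each with the highest value without library 1. Cox7a1 ran from -0.21 to 0.11, Cox7a2 from -0.00 to 0.10 and Uqcrh from -0.02 to 0.09, each crossing 0 without library 2. Named genes that moved by over 1.5 times without a change of sign included Cox6b2, from 0.35 to 1.13, Ndufb6 at -0.18 and Atp5g3 at -0.17 without library 1, Cox7b at 0.23 and Sdhb at 0.28 without library 1, and Ndufa4l2 at 1.38 with a pseudocount of 0.1. At an unadjusted limma p under 0.05, Atp5j was the only gene with a pseudocount of 0.1, with no trend and without library 3, and Atp5k was added by centring. With no filter there were 4, namely Atp5g2, Atp5j, Atp5k and Cox4i2, all lower (1.66% of features lower). Without library 1 there were 5, namely Atp5l, Cox6b2, Ndufa12, Ndufb4 and Ndufb5, all higher and without Atp5j, where 6.43% of features were higher at that p, and without library 2 there were 0. No paired analysis was possible because the control carries only replicate number 1, so the groups share a single number. The cause of these differences was not tested. Depth is known only relative to the control.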

Other observations

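Among the cytosolic ribosomal protein genes, Rpl39l, a paralogue of Rpl39 known from testis, was the only one that rose by the rule stated for the series. It stood at 0.508, 7.62 and 15.9 FPKM in knockdown libraries 1, 2 and 3 and at 0.255 in the control, so that libraries 2 and 3 were high. Cox6b2, also an isoform known from testis, had 27.4, 62.2 and 82.2 FPKM against 32.3, with the same order of libraries. Near-identical copies of ribosomal protein genes can share reads, so the level of Rpl39l is uncertain.

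Transcript length was compared because many oxidative phosphorylation genes are short. The features set beside the group here were limited to the more abundant ones by a minimum mean FPKM. That filter was not applied to the group, so the sets are not matched in level. For 29 genes of the group with transcripts under 600 bases the log2 ratios had medians of -0.10, 0.02 and 0.02 in libraries 1, 2 and 3, beside -0.08, -0.01 and -0.01 for 215 such features of that length. For 32 of 600 to 1000 bases they were -0.16, 0.11 and 0.09, beside -0.03, 0.00 and 0.00 for 830 features. For 19 longer ones they were -0.08, 0.15 and 0.07, beside -0.01, 0.01 and -0.02 for 3305 features. The values below 0 in library 1 and above 0 in the others were thus seen in each length class of the group.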
